A study of Saccharomyces cerevisiae with 12 samples.

Results

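The comparison described here sets the bikaverin strain YJ-06 against the plasmid strain YJ-09, both at high SAM, in 6 of the 12 RNA-seq libraries of a Saccharomyces cerevisiae series. Per the labels, YJ-06 had a bikaverin biosynthesis module introduced, YJ-09 had plasmid pRS416 introduced, both were labelled as high in SAM, and both were sampled at 36 h. YJ-04 (bikaverin module) and YJ-08 (pRS416), which are other strains, form the matching pair at low SAM and serve here as a second contrast. Each group is 1 strain with 3 libraries, and the labels do not say that these were separate cultures, so p-values measure only the spread between libraries. The sources used here do not give how SAM was raised, nor the strain background, mating type, ploidy or growth medium.

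Bikaverin is a red polyketide pigment of Fusarium fungi, assembled from acetyl-CoA and malonyl-CoA by a polyketide synthase and finished by an oxygenase and an O-methyltransferase. The methyltransferase takes its methyl groups from SAM (S-adenosylmethionine), which yeast makes from methionine and ATP and regenerates through the methyl cycle. pRS416 is a centromeric shuttle vector with a URA3 marker. The comparison therefore holds the SAM label constant and asks how the yeast transcriptome differs between a strain with the pathway and a strain with the vector.

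Levels are in FPKM, read fragments scaled to gene length and to the mapped total, and they were deposited in 2 tables, of which the bikaverin strains fill one and the pRS416 strains the other. Strain, table and depth cannot be told apart in any value below. Matched genes held 15.0 to 16.2 M reads in the bikaverin libraries and 41.5 to 45.1 M in the pRS416 libraries, a ratio of 2.76, so that 3 reads in a gene of 1 kb correspond to 0.179 to 0.195 FPKM in bikaverin and to 0.0690 to 0.0737 FPKM in pRS416. The tables share 6526 features, and the 6206 with a mean of at least 1 FPKM were tested after joint rescaling. The 6 introduced pathway genes are listed in the pRS416 table only, at no more than 1.26 FPKM at high SAM, and were not analysed here in the bikaverin libraries. Across features, bikaverin replicate 1 correlated with the other bikaverin libraries at r = 0.984 and 0.980, which correlated with each other at 0.994. The pRS416 libraries correlated at 0.991 to 0.994, and values that rest on bikaverin replicate 1 are also given without it.

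A feature is called here when its adjusted p was below 0.05 and its log2 fold change 1 or more in size, that is 2-fold. By this rule, 531 features were higher in bikaverin (8.56% of those tested) and 528 were lower (8.51%). Every count of called list members below is to be read against these shares. Of the 1059 called, 156 had no match in the reference, so their length could not be checked. Among all features tested, 93.5% had a match. With no size limit, 3917 features (63.1%) passed the adjusted p of limma. The 3 and 3 libraries did not overlap for 71.6% of all features tested, and for 1056 of the 1059 called. The 10 largest folds each way were picked among called features without overlap, so their separation was fixed by that choice. The median over all features was -0.00, a value that the joint rescaling sets near 0. On the log2(FPKM + 1) scale, 12 features were higher and 8 lower by 4 or more. With the sums of FPKM set equal instead, which puts the median of all features at 0.15, the split was 690 higher and 394 lower. Thinning the pRS416 reads to the depth of the bikaverin libraries was possible only for features matched to the reference. Of these, 907 were called, 882 of them shared with the 1059 above. The 156 called features without a match were left out of that fit.

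**Figure D1:**
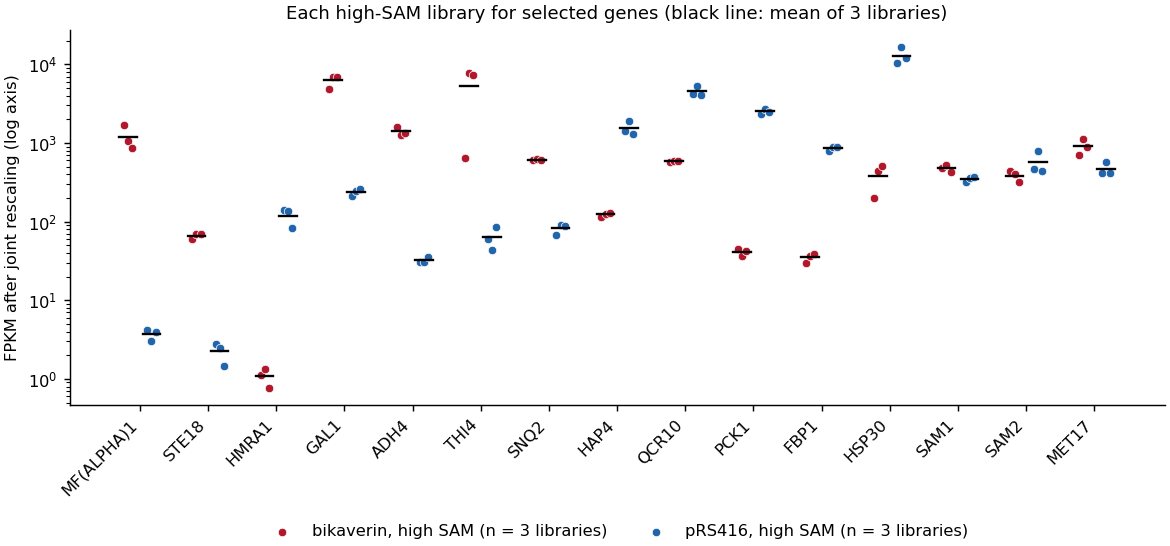
FPKM after joint rescaling (log axis) in each bikaverin (red, left) and pRS416 (blue, right) high-SAM library for 15 genes, with the mean of 3 libraries as a black line. The groups are apart by more than their spread for most genes shown, and THI4 has 1 bikaverin library far below the rest of its group. SAM1 is 1.35-fold higher in bikaverin and SAM2 is 1.48-fold lower.

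The widest gap of the whole comparison was a mating pheromone gene. Haploid yeast cells are of mating type a or alpha, secrete a pheromone and answer the partner's pheromone through a receptor, a G protein and a MAP kinase cascade. Diploid cells carry both mating type alleles, and their a1-alpha2 repressor shuts off the haploid genes. MF(ALPHA)1 (chrXVI:193648-194145, plus strand), which encodes the alpha-factor precursor, was at 1671, 1069 and 859.8 FPKM in the bikaverin libraries, against 4.18, 3.06 and 3.98 FPKM in the pRS416 libraries. Every bikaverin library lay far above every pRS416 library, a 321-fold difference of the means (log2 fold change 7.94, SE 0.22, adjusted p = 1.1e-07). Without bikaverin replicate 1, the highest of its group, the ratio was 258.

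All 4 alpha-cell markers tested were called higher in bikaverin, with a median log2 fold change of 2.50, against -0.00 over all features. STE3, the receptor for a-factor, had 189, 142 and 127 FPKM in bikaverin and 11.6, 10.9 and 13.4 FPKM in pRS416 (12.8-fold). SAG1, the alpha-agglutinin that glues mating cells together, differed by 2.69-fold and MF(ALPHA)2 by 2.80-fold. The summed level of the 4 markers was 1124 to 2025 FPKM in bikaverin and 65.3 to 74.9 FPKM in pRS416. Of the 7 a-cell markers, none was called higher and MFA2, an a-factor gene, was called lower. MFA2 had 20.0, 20.8 and 12.1 FPKM in bikaverin and 47.9, 30.6 and 33.4 FPKM in pRS416, and its call was lost without bikaverin replicate 3 or pRS416 replicate 1 and with the sums of FPKM set equal. The a-cell markers summed to 80.4 to 92.8 FPKM in bikaverin and 109 to 126 FPKM in pRS416.

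The pheromone pathway shared by both haploid types stood in the same direction. Of 16 haploid and pheromone response genes tested, 11 were called higher in bikaverin and none lower (median log2 fold change 1.46), beside 8.56% of all features. STE18, the gamma subunit of the receptor's G protein, was at 59.6, 69.8 and 69.3 FPKM in bikaverin and at 2.77, 2.48 and 1.47 FPKM in pRS416, 29.6-fold apart (log2 fold change 4.39, SE 0.16, adjusted p = 4.2e-07). STE4, the beta subunit, had 98.2, 77.2 and 76.5 FPKM in bikaverin and 8.62, 10.1 and 9.28 FPKM in pRS416. GPA1, the alpha subunit, had 98.4, 90.1 and 80.9 FPKM in bikaverin and 13.9, 13.8 and 13.2 FPKM in pRS416. The groups did not overlap for any of the 3 subunits, as for 71.6% of all features. Downstream of them, FUS3, the mating MAP kinase, was 11.9-fold higher, STE5, its scaffold, 3.40-fold, and STE12, the transcription factor at the end of the cascade, 2.33-fold. FAR1, which arrests the cell cycle for mating, was 2.78-fold higher. The 5 members not called were FUS1, PRM1, FIG1, FUS2 and KAR4, with log2 fold changes of 0.73, 0.43, 0.39, 0.38 and 0.29. The summed level of the haploid list was 789 to 926 FPKM in bikaverin and 203 to 223 FPKM in pRS416. In bulk RNA, fewer cells of a type and less RNA per cell cannot be told apart.

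HMRA1 (chrIII:293835-294321, plus strand), which gives the a1 partner of the a1-alpha2 repressor, ran the other way. It was at 1.13, 1.34 and 0.775 FPKM in bikaverin and at 141, 135 and 82.0 FPKM in pRS416, 110.3-fold lower in bikaverin (log2 fold change -5.82, SE 0.21, adjusted p = 3.2e-07). No bikaverin library came near the lowest pRS416 library. The genes listed at MAT are alpha genes. Whether the HMRA1 reads came from HMR or from an a1 gene at MAT cannot be told here. HMRA2 was 5.70-fold higher in bikaverin, but it has a near-identical copy at HML, so its level is uncertain. The alpha genes at MAT and HML were not tested here, since they were listed in 1 table only or had a mean under 1 FPKM. HO, the endonuclease that switches mating type, had 25.1, 19.8 and 14.3 FPKM in bikaverin and 1.38, 1.51 and 1.44 FPKM in pRS416. RME1, a repressor of meiosis, had 101, 112 and 133 FPKM in bikaverin and 33.8, 31.5 and 40.7 FPKM in pRS416.

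HO and RME1 are also the members of the haploid list whose upstream sequence holds an a1-alpha2 operator in the form searched, TGT and TACATC on either strand with 7 free bases between them. This form was chosen after the values were seen, and it occurs in 42 of 5787 windows of 500 bases before a start codon (0.726%) and in 2 of the 16 haploid genes. The Ste12 site TGAAACA lay in 10 of the 16, in 6 of the 11 called and in 11.8% of all windows. The stretches around the operator matches of HO and RME1 are shown because both genes were called with the haploid group. They are from the R64 genome, 5′ to 3′ on the gene's strand, with the match in capitals. A match is a description of letters and not a bound site.

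HO, chrIV:48412-48477, minus strand: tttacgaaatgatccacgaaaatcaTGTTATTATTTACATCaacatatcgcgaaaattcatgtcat

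RME1, chrVII:584255-584320, minus strand: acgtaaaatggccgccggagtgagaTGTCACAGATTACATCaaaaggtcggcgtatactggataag

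The galactose regulon formed the next group by size. Galactose genes are driven by the activator Gal4, held off by Gal80 and released by Gal3 when galactose is present, and glucose represses them. Of 8 members tested, 7 were called higher in bikaverin (median log2 fold change 2.27), and all 7 stayed called in every fit that left out a library. GAL1, galactokinase, was at 4912, 6893 and 6984 FPKM in bikaverin and at 213, 245 and 262 FPKM in pRS416, 26.1-fold apart (log2 fold change 4.68, SE 0.16, adjusted p = 3.2e-07). GAL10, the epimerase and mutarotase, had 4706, 7372 and 7359 FPKM in bikaverin and 251, 275 and 296 FPKM in pRS416. GAL7, the uridylyltransferase, had 2186, 2882 and 3031 FPKM in bikaverin and 202, 185 and 222 FPKM in pRS416. In each of these, bikaverin replicate 1 was the lowest of its group and still several times above every pRS416 library. GAL2, the galactose permease, was 5.65-fold higher, GAL3, the sensor, 4.28-fold, GCY1, an aldo-keto reductase, 2.57-fold and GAL80, the inhibitor, 2.26-fold. GAL4 itself was not called, at 17.6, 19.2 and 21.3 FPKM in bikaverin and 27.5, 27.3 and 30.8 FPKM in pRS416. GAL1 and GAL10 overlap an annotated noncoding gene, and the sources used here do not say whether counting used strand.

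The Gal4 site searched (CGG and CCG with 11 free bases between them, the same on both strands) was found in the windows of all 8 members, against 172 of 5787 windows overall (2.97%). GAL1, GAL7 and GAL3 are shown, with each site in capitals. The GAL1 stretch lies between GAL1 and GAL10, so its 3 sites belong to both genes.

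GAL1, chrII:278543-278646, plus strand: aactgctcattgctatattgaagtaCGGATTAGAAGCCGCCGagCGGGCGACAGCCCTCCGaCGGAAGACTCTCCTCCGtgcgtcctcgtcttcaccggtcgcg

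GAL7, chrII:275678-275744, minus strand: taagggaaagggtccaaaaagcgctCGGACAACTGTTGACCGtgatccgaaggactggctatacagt

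GAL3, chrIV:463121-463187, plus strand: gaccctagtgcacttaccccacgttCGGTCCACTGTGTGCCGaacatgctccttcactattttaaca

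**Figure D2:**
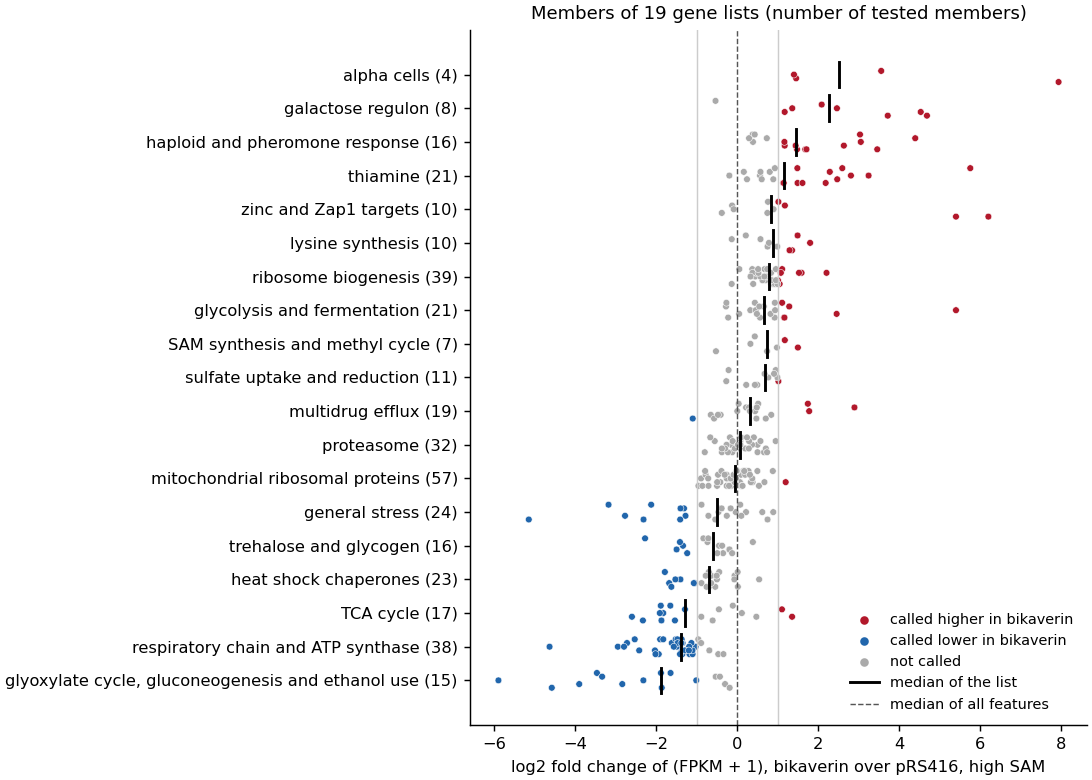
Log2 fold change of (FPKM + 1), bikaverin over pRS416 at high SAM, for each tested member (points) of selected gene lists, with list medians as black bars and the number tested in brackets. Alpha-cell, galactose and haploid genes lie to the right, at medians of 2.50, 2.27 and 1.46, and respiratory and gluconeogenic genes to the left, at -1.40 and -1.89.

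Genes of respiration made up the largest group that was lower in bikaverin. The respiratory chain passes electrons from NADH and succinate to oxygen, and in yeast its nuclear genes are turned on by the HAP complex, whose activating subunit Hap4 is kept low on glucose. Of 38 respiratory chain and ATP synthase genes tested, 33 were called lower in bikaverin and none higher, beside 8.51% of all features, with a median log2 fold change of -1.40. HAP4 (chrXI:232227-233891, plus strand) was at 116, 126 and 129.8 FPKM in bikaverin and at 1431, 1896 and 1286 FPKM in pRS416, 12.4-fold lower in bikaverin (log2 fold change -3.61, SE 0.15, adjusted p = 5.1e-07). The bikaverin libraries lay in a narrow band well under every pRS416 library. CYC7, the minor isoform of cytochrome c, had 69.0, 96.4 and 94.4 FPKM in bikaverin and 1927, 2573 and 2027 FPKM in pRS416. QCR10, a subunit of complex III, had 570.2, 589 and 589.8 FPKM in bikaverin and 4255, 5312 and 4081 FPKM in pRS416. COX7, a subunit of cytochrome c oxidase, was 6.63-fold lower and QCR9, another complex III subunit, 6.99-fold lower. The 5 members not called were NDE2, CYT1, ATP1, ATP5 and ATP14, at log2 fold changes of -0.34 to -0.97. Leaving out any library gave 32 to 34 called members. Mitochondrial ribosomal proteins did not follow: of 57 tested, 1 was called higher and none lower, with a median log2 fold change of -0.05.

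The HAP site CCAAT, on either strand, was present in 34 of the 38 windows of this list and in 31 of the 33 called members, but also in 62.5% of all windows. Stretches of COX7, QCR9 and QCR10, among the 4 members of smallest p, are shown, with capitals marking CCAAT or its reverse complement ATTGG.

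COX7, chrXIII:779260-779314, minus strand: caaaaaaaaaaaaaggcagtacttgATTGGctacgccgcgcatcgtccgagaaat

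QCR9, chrVII:859654-859708, minus strand: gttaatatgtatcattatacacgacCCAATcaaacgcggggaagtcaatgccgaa

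QCR10, chrVIII:107602-107656, plus strand: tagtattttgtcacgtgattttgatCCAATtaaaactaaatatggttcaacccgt

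The TCA cycle, which feeds the chain, was lower as well, at a median log2 fold change of -1.29. Of its 17 genes, 9 were called lower and 2 higher, beside 8.51% and 8.56% of all features. ACO1, aconitase, had 491, 452 and 496 FPKM in bikaverin and 2288, 2589 and 2387 FPKM in pRS416. IDH1, a subunit of the NAD-dependent isocitrate dehydrogenase, had 389, 388 and 366 FPKM in bikaverin and 2030.1, 2592 and 2380.4 FPKM in pRS416, and IDH2, its partner, was 3.78-fold lower. KGD2, of the 2-oxoglutarate dehydrogenase complex, was 3.68-fold lower. The groups did not overlap for any of these 4 genes, as for 71.6% of all features. CIT2, the peroxisomal citrate synthase, was called higher, at 2724, 1934 and 1747 FPKM in bikaverin and 951, 1006 and 972 FPKM in pRS416. Bikaverin replicate 1 was its highest library, and without that library no member of the list was called higher.

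Enzymes that let yeast grow on ethanol and acetate had the lowest median of the lists plotted. Of 15 genes of the glyoxylate cycle, gluconeogenesis and ethanol use, 11 were called lower in bikaverin and none higher, at a median log2 fold change of -1.89. PCK1 (chrXI:631152-632801, plus strand), the committed step of gluconeogenesis, was at 45.1, 37.0 and 42.0 FPKM in bikaverin and at 2350.0, 2729 and 2511 FPKM in pRS416, 61.2-fold lower in bikaverin (log2 fold change -5.90, SE 0.11, adjusted p = 1.8e-08). FBP1, fructose-1,6-bisphosphatase, had 29.8, 36.4 and 38.8 FPKM in bikaverin and 795, 896 and 885 FPKM in pRS416. MDH2, cytosolic malate dehydrogenase, was 11.1-fold lower and SFC1, the mitochondrial succinate-fumarate carrier, 10.3-fold lower. The groups did not overlap for any of these 4 genes, as for 71.6% of all features. ICL1 and MLS1, the enzymes particular to the glyoxylate cycle, were 14.5-fold and 7.18-fold lower. Of the activators of these genes, CAT8 was 3.22-fold, SIP4 3.89-fold and ADR1 2.03-fold lower. ADH2, the alcohol dehydrogenase of ethanol use, was not called, with overlapping groups at means of 100.3 FPKM in bikaverin and 124 FPKM in pRS416. Haploid markers, galactose genes and respiratory genes all separated the same 2 strains, and the part of mating type in the carbon metabolism values was not tested.

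Genes of sugar breakdown were higher in bikaverin where they were called. Of 21 glycolysis and fermentation genes, 6 were called higher in bikaverin and none lower (median log2 fold change 0.66), beside 8.56% of all features. The 6 include ADH4, which is also in the zinc list. Leaving out a library gave 5 to 9 called members. TPI1, triose-phosphate isomerase, had 3500.1, 3159 and 3013 FPKM in bikaverin and 1359, 1361 and 1600.0 FPKM in pRS416, and PGK1, phosphoglycerate kinase, had 2274, 2188 and 2174 FPKM in bikaverin and 928, 904 and 1166 FPKM in pRS416. Both were a little over 2-fold higher, with no overlap. ENO2, enolase, was 5.60-fold higher, but it has a near-identical copy in ENO1, so how reads were divided between them is uncertain. HXT2, a high-affinity glucose transporter, was 14.1-fold higher. It was among 2 of 16 hexose transporters called, both higher, beside 8.56% of all features.

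The precursors of the polyketide come from pyruvate through acetaldehyde and acetate to acetyl-CoA. Of 17 genes of acetyl-CoA and malonyl-CoA supply, 3 were called higher and 2 lower in bikaverin, beside 8.56% and 8.51% of all features. ALD6, the main cytosolic aldehyde dehydrogenase, had 479.7, 364 and 491 FPKM in bikaverin and 39.4, 71.7 and 48.3 FPKM in pRS416, an 8.37-fold difference. ALD4, the mitochondrial aldehyde dehydrogenase, was 3.58-fold higher. PDC5, a pyruvate decarboxylase, had 92.4, 959 and 712 FPKM in bikaverin and 32.0, 32.9 and 57.0 FPKM in pRS416, so its bikaverin libraries spread about 10-fold. The acetyl-CoA synthetases were lower: ACS1 had 92.9, 61.1 and 77.8 FPKM in bikaverin and 239, 340.1 and 272 FPKM in pRS416, and ACS2 had 354, 254 and 214 FPKM in bikaverin and 581, 613 and 644 FPKM in pRS416. ACC1, which makes malonyl-CoA, overlapped between the groups at 132, 102 and 92.3 FPKM in bikaverin and 119, 137 and 113 FPKM in pRS416 (log2 fold change -0.19, SE 0.14, adjusted p = 0.27).

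SAM itself is made by the synthetases SAM1 and SAM2, and neither was called. SAM1 had 475, 528 and 422 FPKM in bikaverin and 319.9, 362 and 372 FPKM in pRS416, a 1.35-fold difference with no overlap (log2 fold change 0.43, SE 0.12, adjusted p = 0.011). SAM2 had 436, 401 and 316 FPKM in bikaverin and 469, 792 and 446 FPKM in pRS416, also with no overlap (log2 fold change -0.53, SE 0.22, adjusted p = 0.063). Its pRS416 replicate 2 lay well above the rest. After a methyl group is used, SAH1 splits S-adenosylhomocysteine. SAH1 was at 821, 554 and 477 FPKM in bikaverin and at 248, 284 and 267 FPKM in pRS416 and was called (log2 fold change 1.17, SE 0.18, adjusted p = 0.00065), but without bikaverin replicate 1 the log2 fold change was 0.95 and the call was lost. SAM4, which uses S-methylmethionine to methylate homocysteine, was called at 2.94-fold higher. MET6, methionine synthase, had 751, 694 and 550.2 FPKM in bikaverin and 341, 340.3 and 322 FPKM in pRS416, just under the size limit at a log2 fold change of 0.98. ADO1, adenosine kinase, differed by 0.73. In all, 2 of the 7 genes in the SAM and methyl cycle list were called, both higher in bikaverin, with a median log2 fold change of 0.73.

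Sulfate assimilation supplies the sulfur of methionine and is switched on by Met4 with its partners Cbf1, Met31 and Met32. Of 11 genes of sulfate uptake and reduction, 1 was called, MET3, higher in bikaverin, beside 8.56% of all features, and the list's median log2 fold change was 0.67. MET3, ATP sulfurylase, had 78.7, 144 and 119.7 FPKM in bikaverin and 56.9, 55.4 and 50.7 FPKM in pRS416 (log2 fold change 1.01, SE 0.19, adjusted p = 0.0018). Its call stood at the edge of the rule: it was lost without bikaverin replicate 2, bikaverin replicate 3 or pRS416 replicate 3, at log2 fold changes of 0.83, 0.95 and 0.96. Without bikaverin replicate 1, and likewise with the sums of FPKM set equal, 4 members were called. MET17, which fixes sulfide into homocysteine, had 711, 1111 and 901 FPKM in bikaverin and 417, 574 and 412 FPKM in pRS416 (log2 fold change 0.95, SE 0.19, adjusted p = 0.0023), and it overlaps YLR302C on the other strand. MET14, APS kinase, and MET5, a sulfite reductase subunit, differed by 0.77 and 0.99. SUL1 and SUL2, the sulfate permeases, overlapped between the groups.

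The Cbf1 site CACGTG, which reads the same on both strands, lay in 10 of the 11 windows of this list and in 6.15% of all windows. The Met31 and Met32 core TGTGGC, on either strand, lay in 7 of the 11 and in 14.2% of all windows. The stretches of MET3 and MET17 are shown with the Cbf1 sites in capitals.

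MET3, chrX:455837-455909, plus strand: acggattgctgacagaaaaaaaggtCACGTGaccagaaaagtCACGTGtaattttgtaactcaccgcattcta

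MET17, chrXII:732217-732272, plus strand: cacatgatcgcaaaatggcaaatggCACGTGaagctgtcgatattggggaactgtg

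Of 9 genes of sulfur compound transport and scavenging tested, 4 were called higher in bikaverin and 1 lower (median log2 fold change 0.54). SAM3, the high-affinity SAM permease, had 362, 380.1 and 333 FPKM in bikaverin and 116, 98.5 and 120.1 FPKM in pRS416 (log2 fold change 1.68, SE 0.11, adjusted p = 4.6e-06). MUP1, the high-affinity methionine permease, had 478, 635 and 578 FPKM in bikaverin and 209.6, 194 and 221 FPKM in pRS416. JLP1, a dioxygenase that releases sulfite from sulfonates, was 3.28-fold higher, and YCT1, a cysteine transporter, 3.78-fold. MUP3, the low-affinity methionine permease, was called lower, at 16.0, 36.5 and 35.7 FPKM in bikaverin and 268, 243 and 284 FPKM in pRS416, 9.02-fold lower in bikaverin. Of 5 Met4 regulators tested, MET32 was called lower (2.28-fold), beside 8.51% of all features. That call was lost without bikaverin replicate 1 or pRS416 replicate 2 and with the sums of FPKM set equal. CYS4, which draws homocysteine into cysteine, was 2.22-fold higher. It was the member called of 11 transsulfuration and glutathione genes, beside 8.56% of all features called higher. Without bikaverin replicate 1, without pRS416 replicate 3 or with the sums of FPKM set equal, 3 members were called. Phosphatidylcholine synthesis is a large consumer of SAM, and its methyltransferases split: CHO2 had 34.5, 35.5 and 32.6 FPKM in bikaverin and 99.9, 131 and 79.0 FPKM in pRS416, while OPI3 had 649.7, 432 and 448 FPKM in bikaverin and 127, 311 and 125 FPKM in pRS416. Both were called, CHO2 lower and OPI3 higher.

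Among 19 multidrug efflux genes, 3 were called higher in bikaverin and 1 lower, beside 8.56% and 8.51% of all features. SNQ2, an ABC multidrug pump, was at 601, 629.5 and 610.0 FPKM in bikaverin and at 68.0, 91.4 and 87.6 FPKM in pRS416, a 7.45-fold difference (log2 fold change 2.89, SE 0.12, adjusted p = 5.8e-07). PDR5, the broad-range drug pump, had 332, 321 and 309 FPKM in bikaverin and 96.9, 85.9 and 103 FPKM in pRS416. FLR1, a transporter of the major facilitator family, had 103, 113 and 109.8 FPKM in bikaverin and 29.1, 33.0 and 31.0 FPKM in pRS416. These 3 genes had tight replicates in both groups. YOR1, another ABC pump, was not called at 1.40-fold, and TPO1, a polyamine exporter, overlapped between the groups. TPO2, the member called lower, has a near-identical copy, so its level is uncertain.

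Zinc genes gave 2 of the largest folds. Zap1 senses zinc and turns on uptake and zinc-sparing genes when it is short. ZPS1, a cell-wall protein induced at low zinc, was at 4788, 1704 and 1684 FPKM in bikaverin and at 33.3, 24.2 and 38.8 FPKM in pRS416, an 84.9-fold difference that was 52.8-fold without bikaverin replicate 1, the highest library. ADH4, an alcohol dehydrogenase induced at low zinc, had 1603, 1255 and 1360.1 FPKM in bikaverin and 30.8, 30.5 and 35.2 FPKM in pRS416 (log2 fold change 5.40, SE 0.12, adjusted p = 3.2e-08). Even so, 4 of 10 members were called. A Zap1 element, added to the motif search after the values were seen, lay upstream of 1 of the 10, ZRT1, and of 0 of the 4 called. ZRT2, the low-affinity zinc transporter, was 2.27-fold higher, and ZAP1 itself was 2.03-fold higher, a call lost without bikaverin replicate 1 or pRS416 replicate 1. ZRT1, the high-affinity transporter, had 813, 712 and 695 FPKM in bikaverin and 759, 725 and 883 FPKM in pRS416, so the groups overlapped. YOR387C, at 1103, 482 and 448 FPKM in bikaverin and 4.53, 5.08 and 6.41 FPKM in pRS416, and VEL1, 32.2-fold higher, were also among the 10 largest folds, but they are near-identical copies of each other and the split of reads between them is uncertain.

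Thiamine genes were called higher in 12 of 21 members tested (median log2 fold change 1.15), and in 8 of the 14 without a near-identical copy. THI4, which makes the thiazole part of the vitamin, was at 639, 7857 and 7388 FPKM in bikaverin and at 60.4, 43.9 and 84.6 FPKM in pRS416 (log2 fold change 5.75, SE 0.83, adjusted p = 0.00042). Bikaverin replicate 1 lay more than 10-fold under the other two, and the log2 fold change was 6.95 without it, 5.14 without replicate 2 and 5.18 without replicate 3. THI7, the thiamine transporter, had 1065, 1784 and 1551 FPKM in bikaverin and 193, 195 and 227 FPKM in pRS416. THI20, a kinase of the pyrimidine branch, had 201, 430.1 and 389 FPKM in bikaverin and 68.5, 64.2 and 79.4 FPKM in pRS416. Replicate 1 was the lowest bikaverin library for all 3 genes. THI5, THI11 and THI13, of the same branch, are near-identical copies and uncertain as single genes. PHO3, an acid phosphatase that works on thiamine phosphates, was 20.8-fold higher, at 227, 350.4 and 261 FPKM in bikaverin and 12.9, 14.4 and 12.9 FPKM in pRS416.

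Stress genes were lower in bikaverin where they were called. Of 24 general stress genes, 9 were called lower and none higher (median log2 fold change -0.51). Of 23 heat shock chaperones, 7 were lower and none higher (-0.70), beside 8.51% of all features called lower. HSP30, a plasma membrane heat shock protein, was at 198, 443 and 513 FPKM in bikaverin and at 10371, 16504 and 11948 FPKM in pRS416, 33.6-fold lower in bikaverin (log2 fold change -5.15, SE 0.34, adjusted p = 5.1e-06). Every bikaverin library lay far below the lowest pRS416 library. SPI1, a cell-wall protein, was 9.03-fold lower, and SIP18, a desiccation protein, had 1050.0, 1465 and 1594 FPKM in bikaverin and 9202, 8415 and 10171 FPKM in pRS416. HSP104, the disaggregase, was 3.17-fold lower and HSP78, its mitochondrial relative, 3.41-fold lower. Of the trehalose and glycogen genes, 5 of 16 were called lower.

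Among single features, DMO1 (chrX:647126-647476, plus strand) had the lowest log2 fold change (-6.32), at 6.49, 11.7 and 8.91 FPKM in bikaverin and 771, 866 and 723 FPKM in pRS416, 87.2-fold lower in bikaverin. DPA10 was 35.9-fold lower, SPG1 15.3-fold, and UPS2, a mitochondrial phospholipid regulator, 15.6-fold. YGR174W-A had no read in the 3 bikaverin libraries and 17.1, 19.6 and 18.7 FPKM in pRS416. Against 3 reads over the bikaverin group it was at least 26.1-fold lower, and this bound covers counting error only. The feature is only 87 bases long and had 201 reads over the pRS416 group. At low SAM it averaged 119 FPKM in bikaverin and 229 FPKM in pRS416. URA3, the marker of pRS416, was not called and overlapped between the groups, at 1626, 1369 and 1273 FPKM in bikaverin and 1156, 732 and 1339 FPKM in pRS416 (log2 fold change 0.44, SE 0.22, adjusted p = 0.10).

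The low-SAM pair, YJ-04 and YJ-08, gives the contrast of module against vector in other strains of the same tables. A constant offset of a feature between the tables cancels in the difference (high-SAM log2 fold change minus low-SAM log2 fold change). This difference was tested in 1 limma fit of all 12 libraries. Each group is a separate strain, so SAM level and strain cannot be told apart in it. At low SAM, 534 of 6249 features were called higher in bikaverin (8.55%) and 325 lower (5.20%), and the difference was called for 1231 (19.7%). Of the 1059 features called at high SAM, 288 were called in the same direction at low SAM, 68 in the opposite direction and 703 were not called there. The difference itself was called for 560 of the 1059.

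**Figure D3:**
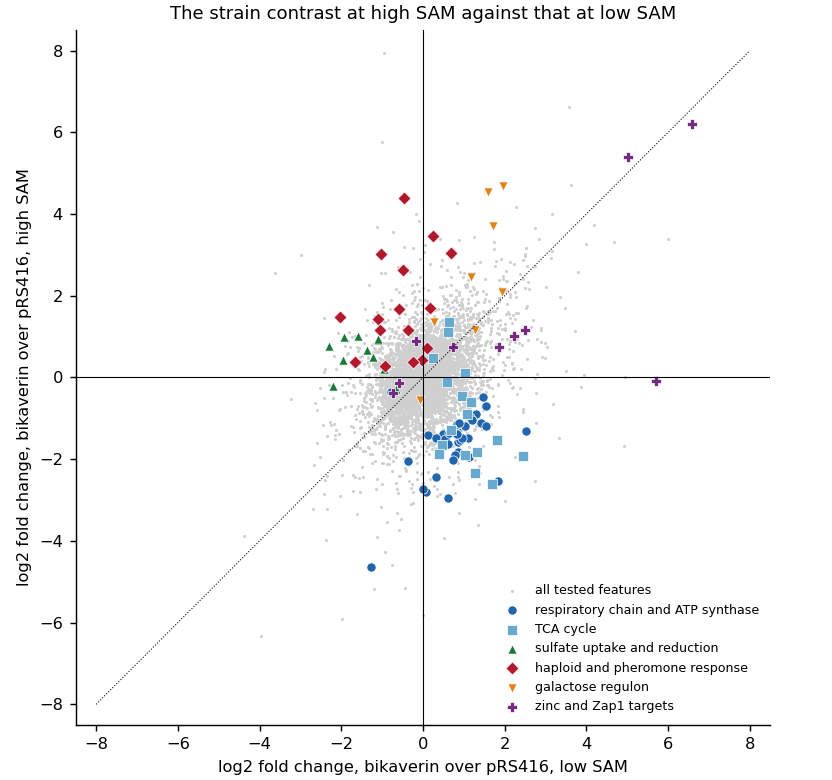
Log2 fold change of (FPKM + 1), bikaverin over pRS416, at high SAM (y axis) against low SAM (x axis) for each tested feature (grey) and the members of 6 lists, with equality as a dotted line. Respiratory and TCA genes lie below the line, haploid and sulfate genes above it, and ZPS1 and ADH4 near it, at log2 fold changes of 6.20 and 5.40 at high SAM.

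The contrast of the respiratory genes differed between the high-SAM pair and the low-SAM pair, which are different strains. At low SAM, 12 of the 38 respiratory genes were called higher in bikaverin and 1 lower (median log2 fold change 0.84), and the difference was called in the negative direction for 37 of them. HAP4 had means of 276 FPKM in bikaverin and 107 FPKM in pRS416 at low SAM, a log2 fold change of 1.36, so its difference was -4.97 (adjusted p = 7.8e-10). The TCA cycle had 9 of 17 genes called higher at low SAM and none lower, with 12 negative differences called. PCK1 was lower in bikaverin at both levels (42.4 against 166 FPKM in pRS416 at low SAM), but the high-SAM gap was larger by 3.92 on the log2 scale (difference -3.92, adjusted p = 4.4e-08). Of the 4 group means, that of pRS416 at high SAM was the highest for both genes, at 1538 FPKM for HAP4 and 2529.9 FPKM for PCK1.

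The contrast of the haploid and pheromone genes also differed between the high-SAM and the low-SAM strains. At low SAM, none of the 16 was called higher and 5 were called lower in bikaverin (median log2 fold change -0.49), and 13 had a called positive difference. MF(ALPHA)1 averaged 372 FPKM in bikaverin and 723 FPKM in pRS416 at low SAM, where it was not called, and its difference was 8.89 (adjusted p = 3.0e-10). HMRA1 was at 0.0524 FPKM in bikaverin and 0.0421 FPKM in pRS416 at low SAM. Of the 4 group means, that of pRS416 at high SAM was the lowest for MF(ALPHA)1, at 3.74 FPKM, and the highest for HMRA1, at 119.5 FPKM.

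Sulfate genes changed sign as a list. At low SAM, 9 of the 11 were called lower in bikaverin and none higher (median log2 fold change -1.38), and 10 had a called positive difference. MET3 averaged 15.6 FPKM in bikaverin and 49.2 FPKM in pRS416 at low SAM, and MET14 averaged 37.2 FPKM in bikaverin and 188 FPKM in pRS416. SAH1 stayed higher in bikaverin at low SAM, at 391 FPKM against 51.7 FPKM in pRS416, and its difference was -1.73 (adjusted p = 3.6e-05).

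Galactose genes were called higher in bikaverin in 6 of 8 cases at low SAM (median log2 fold change 1.43), and 5 had a called positive difference. GAL1 averaged 7119 FPKM in bikaverin and 1838 FPKM in pRS416 at low SAM (difference 2.72, adjusted p = 1.2e-07), whereas GAL3 averaged 184 FPKM in bikaverin and 47.1 FPKM in pRS416, with a difference of 0.13 (adjusted p = 0.29). Of the 10 zinc genes, 6 were called higher in bikaverin at low SAM and none lower (median log2 fold change 2.04), and 5 had a called difference, 4 negative and 1 positive. ZPS1 averaged 1834 FPKM in bikaverin and 18.2 FPKM in pRS416 at low SAM, and ADH4 1257 FPKM in bikaverin and 37.4 FPKM in pRS416. Their differences, -0.38 and 0.37, were not called. ZRT1 averaged 2841 FPKM in bikaverin and 53.1 FPKM in pRS416 at low SAM, with a difference of -5.81 (adjusted p = 2.3e-11). SNQ2 was called higher at both levels, at 542 FPKM in bikaverin and 143 FPKM in pRS416 at low SAM. Of 21 thiamine genes, 4 were called higher in bikaverin at low SAM and none lower. The difference was called for 11 of them, 10 positive and 1 negative. THI4 averaged 268 FPKM in bikaverin and 413 FPKM in pRS416 at low SAM, where it was not called, with a difference of 6.76 (adjusted p = 0.00026).

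**Figure D4:**
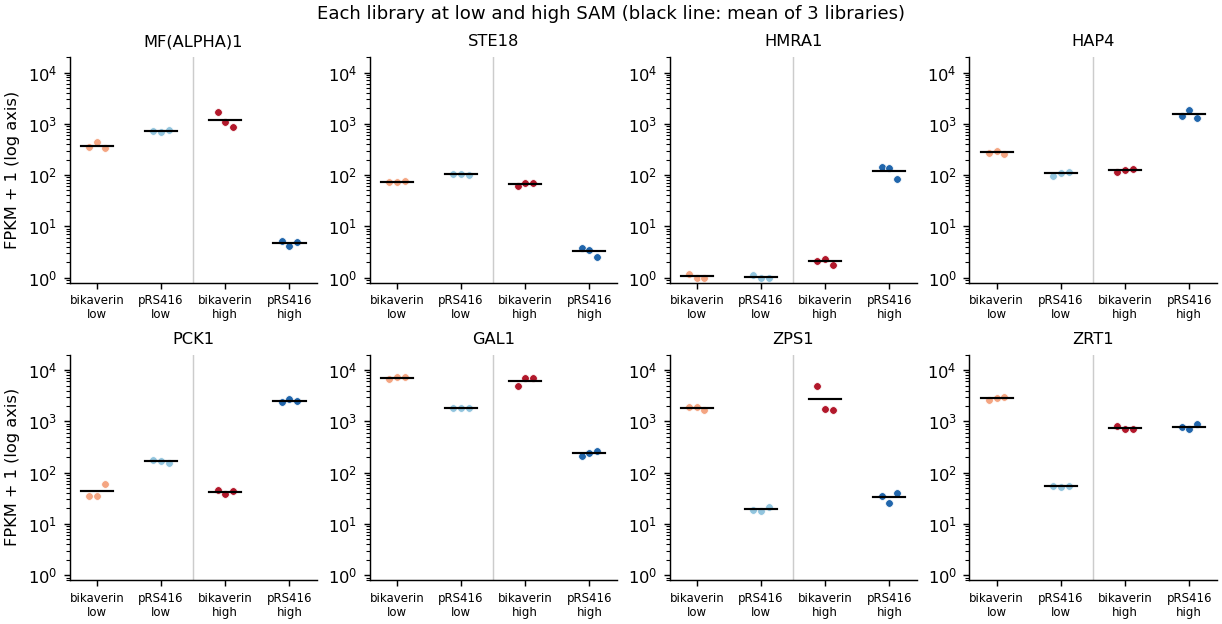
FPKM + 1 (log axis) in each library of the 4 groups for 8 genes, with bikaverin left of pRS416 at each SAM level and the mean of 3 libraries as a black line. The pRS416 high-SAM libraries stand apart for MF(ALPHA)1, STE18, HMRA1, HAP4 and PCK1, while ZPS1 separates bikaverin from pRS416 at both SAM levels.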

How the data were processed

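RNA of 12 yeast samples (4 groups of 3, at 36 h) was analysed from 2 deposited tables of FPKM, made by the authors from RNA-seq reads. The submitters' processing notes name fastp, HISAT2 2.0.5, featureCounts 1.5.0-p3 and genome build R64, and the strand setting and annotation are not stated there. Table headers name strain and library, and these tied each column to its sample. Identifiers were matched across the tables after 713 were restyled, 14 features without a stable name were dropped, and 5804 of the 6206 features tested (93.5%) were matched to the R64 reference for length and coordinates.

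Both tables were rescaled jointly by the median of ratios over shared features, filtered at a mean of 1 FPKM, and tested as log2(FPKM + 1) with limma 3.58.1 (R 4.3.3, intensity trend, Benjamini-Hochberg adjustment over all features tested), after the script was tested on simulated data. Folds are ratios of mean rescaled FPKM, and log2 fold changes carry the pseudocount of 1, which understates changes of low genes. FPKM times exonic length gave whole reads within 0.02 for 97.3% to 98.8% of values under 1000 reads, and thinning, voom and TMM alternatives used these reads. Same-numbered libraries had correlated deviations of 0.117, 0.0130 and 0.128, so the numbers were not taken as pairs. Near-identical copies are genes with 90% identity over 50% of the length (BLAST+ 2.17.0). Motifs were searched in the 500 bases before each start codon. Stress response, Aft1 and GATA factor sites were searched as well and are not described.

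The comparison, its 47 gene lists and its tests were chosen with earlier results of these data known. Named genes were 8 fixed ones, the 10 largest folds each way, the 4 list members with the lowest p and features with under 3 reads in 1 group. The 5 largest differences each way between SAM levels were named as well. The 10 largest folds were ranked among called features without overlap between the groups and with 10 FPKM or more in the higher group. Other list members named beside them were chosen after their values were seen. Read floors cover counting error only. Some list members are not reported here by name.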

Additional observations from a re-analysis of the deposited data

Results flagged for a closer look

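These named genes were called in opposite directions at high and at low SAM, and the difference between the contrasts (high-SAM minus low-SAM log2 fold change, bikaverin over pRS416) was itself called by limma. They are given as values.

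Lower in bikaverin at high SAM and higher at low SAM were CIS3, a cell-wall protein (difference -6.62, from log2 fold changes of -1.69 at high and 4.92 at low SAM), PCL1, a G1 cyclin (-5.29), the small nucleolar RNA snR30 (-5.03), and HAP4 (-4.97). The TCA genes IDH2 (-4.38), IDH1 (-4.29) and ACO1 (-3.62) had the same signs, as had ACS2 (-2.27) and ROX1, the repressor of hypoxic genes (-2.18). CIS3 averaged 261 FPKM in bikaverin and 834 FPKM in pRS416 at high SAM, and 193 FPKM in bikaverin and 5.39 FPKM in pRS416 at low SAM. PCL1 averaged 102 FPKM in bikaverin and 594 FPKM in pRS416 at high SAM, and 48.2 FPKM in bikaverin and 6.19 FPKM in pRS416 at low SAM.

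Higher in bikaverin at high SAM and lower at low SAM were YDL218W (difference 6.17), YCL048W-A (5.97), STE4 (4.05), SPS100, a spore-wall gene (3.87), JLP1 (3.08), SAG1 (2.75), MET3 (2.60) and SPL2, an inhibitor of low-affinity phosphate uptake (2.57). YDL218W averaged 123 FPKM in bikaverin and 19.2 FPKM in pRS416 at high SAM, and 135 FPKM in bikaverin and 1626 FPKM in pRS416 at low SAM. YCL048W-A averaged 70.0 FPKM in bikaverin and 8.07 FPKM in pRS416 at high SAM, and 209 FPKM in bikaverin and 1631 FPKM in pRS416 at low SAM. SPS100 overlaps a noncoding gene. The part of strain, table and depth in the high-SAM values cannot be told apart.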

How the results depend on the processing

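The count of features called at high SAM was 1059, and leaving out a library gave 975 (without bikaverin replicate 1) to 1151 (without bikaverin replicate 3). With a log2 fold change of at least 0.58 the count was 2284, and with the adjusted p alone 3917. The other scalings, filters, pseudocount, thinning and voom gave 846 (only features with a reference length and no near-identical copy) to 1148 (pseudocount 0.1). With the replicate number as a block, 1061 were called at high SAM, the 1059 among them, and the difference between SAM levels was called for 1228 features, against 1231 without the block. Leaving out a library gave 1186 to 1270 differences. Of 200 named genes, 138 were called, and 120 of them kept the call in every setting run. Among 3563 gene and setting pairs, 38 lost a call, 76 gained one and none turned its direction. Many of these genes were named for large folds or small p in the main fit, so their stability does not speak for all 1059 calls. Ribosome biogenesis had 7 members called higher, but 3 without bikaverin replicate 1, 17 without bikaverin replicate 3 and 13 without pRS416 replicate 1. Lysine synthesis had 4, and 2 without bikaverin replicate 1. The one-carbon folate list had 1 member called higher, and 3 without bikaverin replicate 3 or with the sums of FPKM set equal, where ribosome biogenesis had 16. The meiosis list had 4 higher, and 7 with a pseudocount of 0.1 or with voom. The phosphate list had 5 higher of 15, and 3 of the 11 left at a mean of at least 5 FPKM. The cause of these shifts was not tested. Depth limits features near 0 most: the bikaverin libraries hold fewer reads, and the log2 fold change of YGR174W-A was -4.28 with a pseudocount of 1 and -7.53 with 0.1.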

Other observations

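Of 9 copper homeostasis genes, 2 were called higher in bikaverin and 1 lower, beside 8.56% and 8.51% of all features. CTR3, a copper transporter, had 331, 364 and 374 FPKM in bikaverin and 36.5, 34.7 and 42.3 FPKM in pRS416, and CTR1, the other high-affinity copper transporter, was 7.23-fold higher. CRS5, a copper metallothionein, was 6.87-fold lower, at 156, 212 and 245 FPKM in bikaverin and 1449, 1475 and 1292 FPKM in pRS416. FRE1, a reductase of iron and copper, was 6.68-fold higher in bikaverin. In the iron regulon, 1 of 24 genes was called higher and 1 lower, beside the same shares of all features. FLO11, the adhesin of invasive growth, was at 37.6, 49.8 and 49.4 FPKM in bikaverin and 3.31, 3.49 and 3.40 FPKM in pRS416. It was the member called of 5 flocculins, beside 8.56% of all features called higher.

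Of 28 genes of nitrogen catabolite repression, 4 were called higher and 4 lower in bikaverin, beside 8.56% and 8.51% of all features, and 5 higher and 3 lower with deposited FPKM or with equal sums of FPKM. PUT4, the proline permease, had 48.0, 27.8 and 32.0 FPKM in bikaverin and 3.45, 4.99 and 4.39 FPKM in pRS416, whereas PUT1, proline oxidase, was 2.27-fold lower in bikaverin. Peroxisomal beta-oxidation had 4 of 17 genes called lower, among them FOX2 and CTA1, the peroxisomal catalase (2.78-fold and 2.71-fold lower in bikaverin). Of 39 ribosome biogenesis genes, 7 were called higher in bikaverin; NSR1, a nucleolar protein, had 559.9, 391 and 299.6 FPKM in bikaverin and 90.7, 88.4 and 81.5 FPKM in pRS416. Of 10 lysine synthesis genes, 4 were called higher, and LYS4, homoaconitase, was 3.64-fold higher in bikaverin. Of 78 snoRNA and snRNA features, 9 were called higher and 20 lower in bikaverin, beside 8.56% and 8.51% of all features. None of the 78 has a match in the reference used for lengths.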
